A study of Mus musculus with 12 samples.

Results

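The interferon-stimulated genes are the genes that cells switch on when interferon, the antiviral cytokine, binds its receptors. Their mRNA was measured here in whole hearts of 4 mouse genotypes. From 37 listed genes, those with a probe set annotated to that gene alone were kept, and for each gene its probe set of highest mean was used. This gave 34 of the 37 genes, out of 22180 genes in all. Oas1a and Gbp2 were covered only by probe sets annotated to several genes, and Ifi44 was paired with no probe set in the annotation used here. All mice were males of 15 weeks on the FVB background, and each group held 3 hearts. ErbB2 KI mice carry an ErbB2 cDNA knocked into the gene, which makes a hypomorphic allele of the receptor tyrosine kinase ErbB2. ERRα KO mice lack the nuclear receptor ERRα, a regulator of oxidative metabolism, and KI:KO mice came from a cross of both lines. WT mice carried neither allele. None of the alleles is restricted to heart muscle cells. Levels are RMA log2 values, so 1 unit is a doubling.

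Type I interferons signal through the JAK kinases to a complex of STAT2, its STAT partner and IRF9, which binds the interferon-stimulated response element. Type II interferon, interferon-γ, instead acts through STAT dimers that bind a gamma-activated site, and through IRF1, which it induces. Many products of these genes sense, cut or trap viral nucleic acid. The guanylate-binding proteins (GBPs) and immunity-related GTPases (IRGs), known as strong targets of interferon-γ, attack the membranes around intracellular microbes.

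Both motifs can be read in the promoters of several members. Promoter sequences of RefSeq (assembly GRCm38.p6), from 250 bases before to 50 bases after the start of transcription, were found for 23 of the 34 genes. They were searched on both strands for the IRF core of the interferon-stimulated response element (GAAA, any 2 bases, GAAA) and for the gamma-activated site (TTCNNNGAA). The IRF core was present in 15 of the 23 genes, against 3.99% of the 27025 genes in the table, and the gamma-activated site in 8 of the 23, against 9.55%. Both occurred in 5 genes, against 0.540% of all genes. Counted by promoter, 15, 8 and 5 of 28 member promoters held them, against 3.44%, 8.30% and 0.454% of 32851. Among the GBPs and IRGs, 5 of 8 had a promoter in the table, all 5 held the IRF core and 3 held both motifs. These 5 are shown because the GBPs and IRGs varied widely between the hearts. They are all of the 8 that had a promoter, and were chosen after their values were seen. The capitals mark the motif matches, on either strand.
Igtp: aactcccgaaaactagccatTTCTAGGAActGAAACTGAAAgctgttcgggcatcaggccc
Irgm2: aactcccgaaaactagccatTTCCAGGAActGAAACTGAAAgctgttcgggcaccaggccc
Irgm1: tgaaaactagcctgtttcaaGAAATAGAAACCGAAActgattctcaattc
Gbp7: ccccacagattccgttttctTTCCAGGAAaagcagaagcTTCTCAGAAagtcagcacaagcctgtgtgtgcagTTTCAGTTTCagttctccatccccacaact
Gbp3: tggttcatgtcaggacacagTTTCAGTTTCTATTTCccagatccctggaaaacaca
The Igtp stretch lies at chr11:58199491-58199551 and the Irgm2 stretch at chr11:58214882-58214942, both on the plus strand, upstream of the start. In each, a gamma-activated site was followed after 2 bases by an IRF core, and 59 of the 61 bases were identical between them. Irgm1 (chr11:48871421-48871470, minus strand) and Gbp3 (chr3:142559979-142560034, plus strand) held 2 overlapping IRF cores each. Gbp7 (chr3:142530210-142530312, plus strand) held 2 gamma-activated sites and 1 IRF core.

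Of the 6 members that were higher without ERRα, described further on, 4 had a promoter in the table. Oas3 held an IRF core, Ifit2 held a gamma-activated site, and neither motif was found in the windows of Xaf1 and Oasl2.
Oas3: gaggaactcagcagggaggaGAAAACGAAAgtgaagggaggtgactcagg
Ifit2: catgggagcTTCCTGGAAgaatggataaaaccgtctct
The Oas3 stretch lies at chr5:120777705-120777754 on the minus strand and the Ifit2 stretch at chr19:34550444-34550481 on the plus strand, both upstream of the start.

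The labels were checked on the targeted genes. Esrra, which encodes ERRα, averaged 7.57 ± 0.17 (SD, n = 3) in WT and was lower without ERRα, at 6.38 ± 0.06 (ERRα KO) and 6.25 ± 0.10 (KI:KO). Erbb2 averaged 6.47 ± 0.08 in WT, 5.76 ± 0.17 in ErbB2 KI and 5.81 ± 0.16 in KI:KO hearts. The 6 cardiomyocyte markers lay at or above the 99.6th percentile of gene level. On 4 arrays (replicate 2 of WT and of ERRα KO, replicate 3 of ErbB2 KI and of KI:KO) the median correlation with the other arrays was 0.978 to 0.981, against 0.982 to 0.985 on the remaining 8. Each comparison is given with and without these 4 arrays, an alternative chosen after seeing the data, which leaves 2 hearts in each group. By the median over the 8 GBPs and IRGs this removed the highest WT heart, the lowest ERRα KO heart and the highest KI:KO heart. Calls for these genes without the 4 arrays depend on that choice and are no separate support.

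The GBPs and IRGs varied widely between hearts of one genotype. Igtp, Irgm2, Iigp1, Gbp4, Gbp7, Gbp3 and Irgm1 ranked 4, 13, 11, 27, 43, 51 and 75 among 22180 genes for the standard deviation within genotypes. Igtp, an IRG, was at 7.43, 9.62 and 6.12 in WT replicates 1 to 3, and in the same order at 5.55, 5.36 and 6.14 (ErbB2 KI), 10.68, 6.98 and 10.31 (ERRα KO), then 6.42, 6.62 and 7.54 (KI:KO). The range over all hearts was 39.7-fold. Within one genotype it reached 3.69 in log2 (ERRα KO), against 3.64 between the highest and the lowest group mean, and WT replicate 2 and ERRα KO replicates 1 and 3 stood above every other heart. Irgm2 was at 7.79, 9.43 and 6.58 (WT), 6.28, 6.35 and 6.46 (ErbB2 KI), 10.28, 7.26 and 9.75 (ERRα KO), then 6.95, 7.04 and 7.55 (KI:KO), with the same 3 hearts highest. Whether the probe sets of Igtp and Irgm2 share signal was not tested.

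Iigp1, another IRG, on chromosome 18, had its 3 highest values in the same hearts, 10.50 in WT replicate 2 and 11.33 and 10.89 in ERRα KO replicates 1 and 3, and lay between 7.23 and 8.92 elsewhere. Irgm1, which controls the other IRGs, reached 6.98, 8.05 and 7.11 in those hearts. Gbp7, of the GBP family, was at 8.10, 9.35 and 7.76 (WT), 7.49, 7.70 and 7.58 (ErbB2 KI), 9.96, 7.84 and 9.53 (ERRα KO), then 7.68, 7.68 and 8.49 (KI:KO). Gbp3 and Gbp4 had the same 3 highest hearts, with ranges of 5.73-fold and 5.74-fold. Gbp6 had values from 2.48 to 3.83 and was highest in ERRα KO replicate 3 and KI:KO replicate 2.

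**Figure D1:**
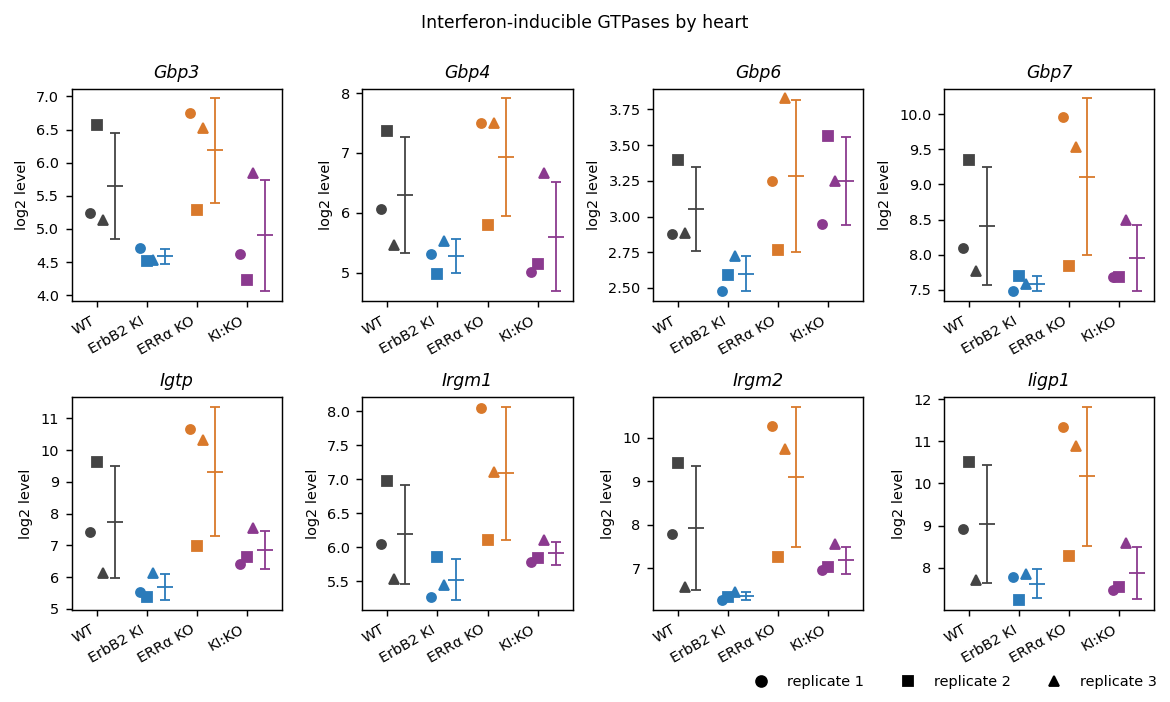
RMA log2 level (vertical axis) of 4 GBP and 4 IRG genes in each heart of 4 genotypes (horizontal axis). Each point is 1 heart, with its shape giving the replicate, and the bar beside it is the group mean ± SD (n = 3). WT replicate 2 and ERRα KO replicates 1 and 3 are the highest hearts in every panel but Gbp6.

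The 3 hearts high for these GTPases were chosen after their values were seen. They were the 3 highest hearts for 15 of the 34 members. Of these, 7 were among the 8 GBPs and IRGs from which the hearts were chosen, so they are no separate support. The rest were 8 of the 26 other members, against 0.640% of all genes with this combination. The 8 were Irf1, Irf9, Stat2, Ddx58, Zbp1, Rtp4, Bst2 and Parp14. ERRα KO replicate 1 alone was the highest heart for 19 of the 34 members, against 8.53% of all genes. Relative to each gene's WT mean, the median over the 8 GTPases was 1.01 in WT replicate 2, 1.71 in ERRα KO replicate 1 and 1.17 in ERRα KO replicate 3, and -0.53 in ERRα KO replicate 2. The 3 ErbB2 KI hearts lay close together at -0.96, -1.22 and -0.98. The median SD of the 8 genes was 0.90 (WT), 0.20 (ErbB2 KI), 1.05 (ERRα KO), then 0.54 (KI:KO), against 0.129, 0.133, 0.140 and 0.145 over all genes.

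**Figure D2:**
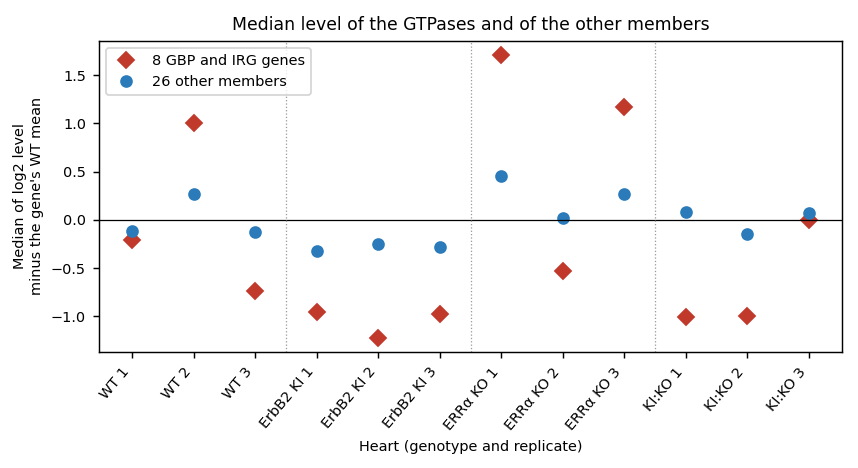
Median over genes of the log2 level minus the gene's WT mean (vertical axis) in each of the 12 hearts (horizontal axis), for the 8 GBP and IRG genes (diamonds) and the 26 other members (circles). The GTPases span -1.22 to 1.71, and the other members move less, from -0.32 to 0.45.

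The order of the genotype means was common to most members. The ErbB2 KI mean was the lowest of the 4 in 28 of 34 members, against 22.0% of all genes. The ERRα KO mean was the highest in 25 members, against 22.8%, and both held in 22 members, against 7.58%. All 8 GBPs and IRGs were among these 22. The KI:KO mean was the highest in 7 members, against 26.6% of all genes. This is a description of means, and the tests of each comparison follow.

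**Figure D3:**
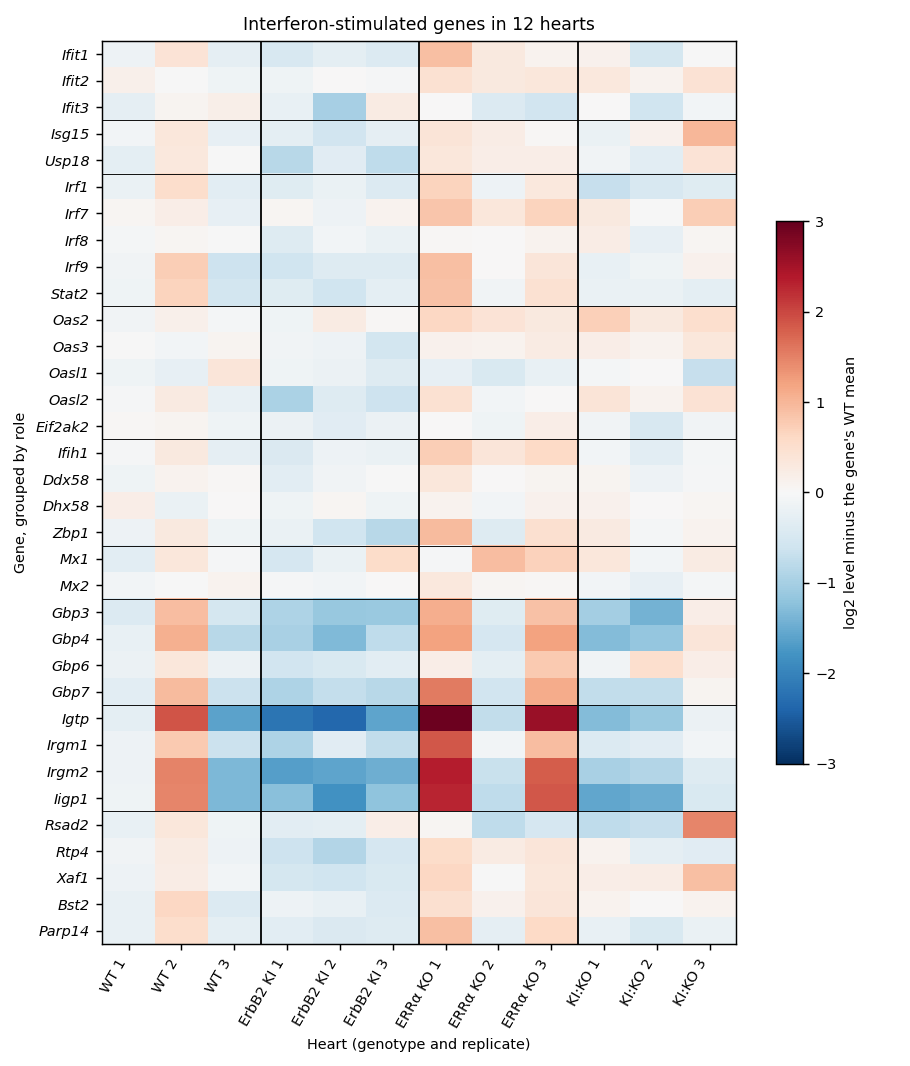
Log2 level minus the gene's WT mean (colour, from -3 in blue to 3 in red) for 34 interferon-stimulated genes (rows, grouped by role) in 12 hearts (columns, by genotype and replicate). The GBP and IRG rows are the most strongly coloured, red in WT replicate 2 and ERRα KO replicates 1 and 3 and blue in the ErbB2 KI hearts.

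The members that passed the test concerned ERRα. Averaged over the ErbB2 genotypes, loss of ERRα (6 hearts against 6) raised 6 of the 34 members and lowered none at an adjusted p under 0.05 (limma, Benjamini-Hochberg over 22180 genes), whereas 3.5% of all genes were called higher. The 6 were Ifit2, Oas2, Oas3, Oasl2, Xaf1 and Rtp4, each raised by 1.24-fold to 1.56-fold. None of the GBPs or IRGs was among them. The average joins 2 comparisons that differed for some of the 6. In ERRα KO relative to WT hearts the log2 differences were 0.36 (Ifit2), 0.44 (Oas2), 0.15 (Oas3), 0.14 (Oasl2), 0.31 (Xaf1) and 0.39 (Rtp4), none of them called. In KI:KO relative to ErbB2 KI hearts those of Oasl2 and Xaf1 were 0.96 and 0.97. The median log2 difference over the 34 members was 0.39, against -0.01 over all genes, and 31 of 34 differences were positive. At an unadjusted p under 0.05 with a change of 1.2-fold or more, the threshold named in the study's methods, 13 members were higher, against 5.6% of all genes. Leaving out 1 heart gave 3 to 9 calls: 3 (Ifit2, Oas2 and Xaf1) on dropping replicate 1 of WT, of ERRα KO or of KI:KO, or WT replicate 3, and 9 without ERRα KO replicate 2. Without the 4 arrays that stood apart, 14 members were called higher, against 2.46% of all genes. Of the 6 only Rtp4 and Xaf1 were among the 14, and the others were Irf7, Stat2, Zbp1, Gbp3, Gbp4, Gbp7, Igtp, Irgm1, Irgm2, Iigp1, Bst2 and Parp14. The 4 members no longer called had log2 differences of 0.33 (Ifit2), 0.49 (Oas2), 0.64 (Oasl2) and 0.21 (Oas3) without these arrays. By the median over the GBPs and IRGs, these arrays held the highest WT, the lowest ERRα KO and the highest KI:KO heart. In whole hearts, a change in the number of cells of a type and a change in RNA per cell cannot be told apart.

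Oas2 makes the oligoadenylates that activate RNase L. It was at 5.91, 6.17 and 5.96 (WT), 5.87, 6.26 and 6.04 (ErbB2 KI), 6.63, 6.42 and 6.30 (ERRα KO), then 6.73, 6.32 and 6.53 (KI:KO). Every heart without ERRα was above every heart with it, which held for 2 of the 34 members and for 495 of all 22180 genes. The difference was 0.45 ± 0.10 (SE) in log2, or 1.37-fold (adjusted p = 0.0155, limma). Oas3, the larger enzyme of the same family, was at 4.92, 4.85 and 5.02 (WT), 4.83, 4.78 and 4.38 (ErbB2 KI), 5.05, 5.03 and 5.17 (ERRα KO), then 5.12, 5.03 and 5.26 (KI:KO). These groups also did not overlap, with 5.02 in the highest heart with ERRα and 5.03 in the lowest without it, and the difference was 0.31 ± 0.09 (adjusted p = 0.049, limma).

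Ifit2, of the IFIT family of RNA-binding proteins that block translation of viral RNA, was at 5.58, 5.42 and 5.31 (WT), 5.32, 5.44 and 5.41 (ErbB2 KI), 5.89, 5.73 and 5.77 (ERRα KO), then 5.76, 5.55 and 5.87 (KI:KO). Only KI:KO replicate 2 fell below the highest WT heart, and the difference was 0.35 ± 0.07 (adjusted p = 0.0149, limma). Ifit1 and Ifit3, its neighbours on chromosome 19, were not called. Ifit1 averaged 5.97 (WT), 5.57 (ErbB2 KI), 6.40 (ERRα KO), then 5.83 (KI:KO), and Ifit3 averaged 5.74, 5.42, 5.42 and 5.52.

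Xaf1, which binds the apoptosis inhibitor XIAP, was at 6.04, 6.41 and 6.11 (WT), 5.65, 5.58 and 5.73 (ErbB2 KI), 6.80, 6.16 and 6.53 (ERRα KO), then 6.39, 6.40 and 7.08 (KI:KO). The ErbB2 KI hearts were the 3 lowest. The averaged difference without ERRα was 0.64 ± 0.14, or 1.56-fold (adjusted p = 0.0159, limma), the largest of the 6. It was the only one of the 6 called under all 21 alternatives that tested it, with adjusted p from 0.00476 to 0.0461.

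Oasl2, an OAS-like protein, was at 6.24, 6.56 and 6.06 (WT), 5.34, 5.91 and 5.67 (ErbB2 KI), 6.74, 6.21 and 6.30 (ERRα KO), then 6.68, 6.40 and 6.71 (KI:KO). Again the ErbB2 KI hearts were the 3 lowest, and WT and ERRα KO hearts overlapped. The averaged difference was 0.55 ± 0.13 (adjusted p = 0.0247, limma). Rtp4, a transmembrane chaperone with antiviral activity, was at 7.05, 7.42 and 7.01 (WT), 6.54, 6.28 and 6.66 (ErbB2 KI), 7.72, 7.41 and 7.51 (ERRα KO), then 7.26, 6.89 and 6.81 (KI:KO). Its averaged difference was 0.44 ± 0.11 (adjusted p = 0.0311, limma), but hearts with and without ERRα overlapped. The KI:KO mean of 6.99 lay below the WT mean of 7.16 and above the ErbB2 KI mean of 6.49. WT replicate 2, at 7.42, also lay just above the lowest ERRα KO heart, at 7.41.

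**Figure D4:**
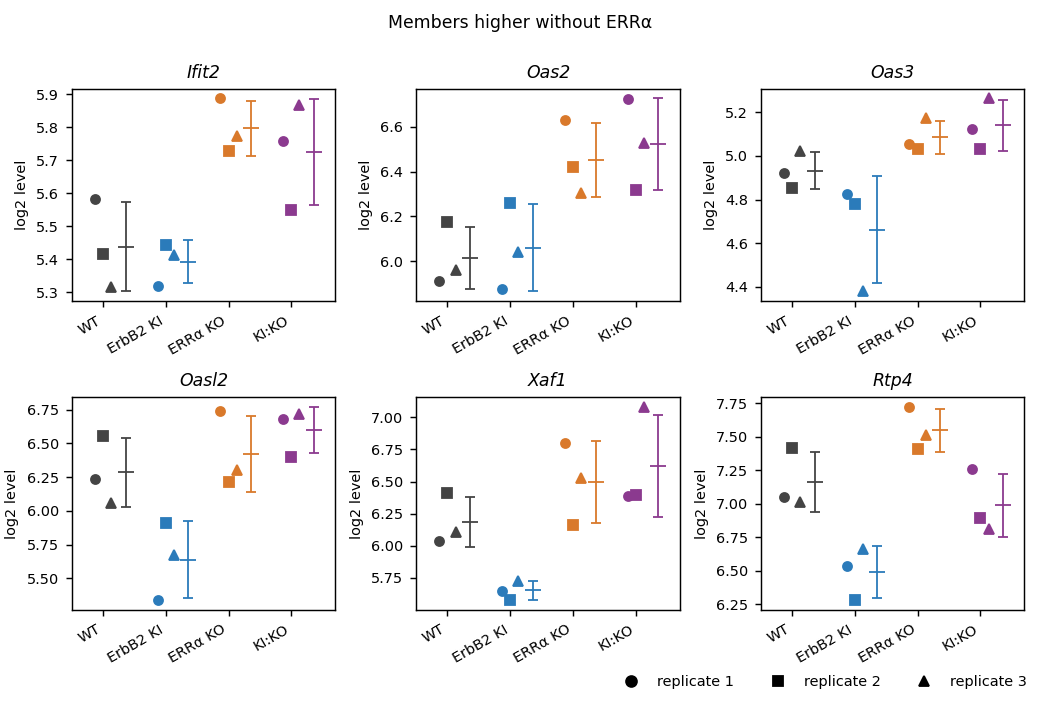
RMA log2 level (vertical axis) of the 6 members called higher without ERRα in each heart of 4 genotypes (horizontal axis). Each point is 1 heart, with its shape giving the replicate, and the bar is the group mean ± SD (n = 3). Oas2 and Oas3 lie higher in hearts without ERRα with no overlap, as do 495 of all 22180 genes. The ErbB2 KI hearts are the lowest for Oasl2, Xaf1 and Rtp4.

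Macrophage markers moved with the same contrast. Of 12 markers, 9 were called higher, against 3.5% of all genes. The summed linear level of the 12 was 2304 to 2424 in WT, 2328 to 2598 in ErbB2 KI, 2631 to 4299 in ERRα KO and 3954 to 5226 in KI:KO hearts. ERRα KO replicate 1, the heart highest for most members, had the highest sum in its group, 4299. WT replicate 2, high for the GTPases, had 2424, against 2364 and 2304 in the other WT hearts. KI:KO replicates 1 to 3 had macrophage sums of 5226, 4152 and 3954 and GTPase medians of -1.002, -0.996 and 0.0009. Fibroblast markers moved with the contrast as well. Of 6 markers 1 was called higher. All 6, with a median log2 difference of 0.30, were higher at an unadjusted p under 0.05 with 1.2-fold or more, against 5.6% of all genes. Their summed level was 6798 to 7523 in hearts with ERRα and 8190 to 10457 in hearts without it, with no overlap. Of 6 endothelial markers 1 was called lower, as were 726 of all 22180 genes. In this contrast none of the T cell (6 measured), NK cell (6), B cell (4), plasmacytoid dendritic cell (5), neutrophil (5), adipocyte (4) or cardiomyocyte (6) markers was called. In KI:KO relative to WT hearts, 1 neutrophil and 1 plasmacytoid dendritic cell marker were called higher, against 652 of all 22180 genes. The summed neutrophil markers were 175, 139 and 85 in KI:KO replicates 1 to 3 and 89 to 99 in WT. The B cell markers all lay below the 40th percentile of gene level, as did 3 of 6 T cell, 4 of 6 NK cell, 4 of 5 neutrophil, 3 of 5 plasmacytoid dendritic cell and 1 of 4 adipocyte markers. The plasmacytoid dendritic cell list also holds Cox6a2, a cytochrome oxidase subunit of heart and skeletal muscle, at the 99.9th percentile. The summed T cell markers stayed between 136 and 178 except in ErbB2 KI replicate 2, at 581. The part of these cells in the results was not tested.

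With WT as the reference, no member passed the threshold in ERRα KO hearts (2.35% of all genes did, limma), although 5 had an unadjusted p under 0.05, against 12.7% of all genes. The median difference over the members was 0.35, and 0.62 without the 4 arrays that stood apart, with 31 of 34 above 0 both ways. In 5 members the 3 ERRα KO hearts lay above the 3 WT hearts, namely Ifit2, Irf7, Oas2, Oas3 and Ifih1, against 9.24% of all genes. Ifih1, a sensor of long double-stranded RNA, had the smallest p. It was at 6.87, 7.20 and 6.63 (WT), 6.48, 6.75 and 6.70 (ErbB2 KI), 7.64, 7.27 and 7.49 (ERRα KO), then 6.81, 6.59 and 6.85 (KI:KO). The difference from WT was 0.57 ± 0.15 (adjusted p = 0.0839, limma), and that of Ifit2 was 0.36 ± 0.10 (adjusted p = 0.124, limma). Irf7, the factor that amplifies type I interferon production, averaged 6.33 in ERRα KO against 5.72 in WT. Igtp averaged 9.32 against 7.73 with a 95% interval of the difference from -0.45 to 3.65. Without the 4 arrays that stood apart, 11 members were called higher, against 0.649% of all genes. These were Igtp, Irgm1, Irgm2, Iigp1, Gbp3, Gbp4, Gbp7, Ifih1, Stat2, Bst2 and Parp14, and the log2 difference of Igtp was then 3.72. By the median over the GBPs and IRGs, the arrays left out held the highest WT and the lowest ERRα KO heart. For Igtp these hearts were at 9.62 and 6.98. Leaving out WT replicate 2 alone gave 2 calls, Ifih1 and Bst2.

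In ErbB2 KI hearts relative to WT, 33 of 34 members had a lower mean and the median difference was -0.38, but none passed the threshold (0.0135% of all genes did, limma). Unadjusted, 6 had a p under 0.05, against 5.33% of all genes. The 3 ErbB2 KI hearts lay below the 3 WT hearts in 15 of 34 members, against 6.14% of all genes. Rtp4 had the smallest p, with a difference of -0.67 ± 0.15 (adjusted p = 0.504, limma), and Oasl2 came next at -0.65 ± 0.18 (adjusted p = 0.701, limma). Usp18, the protease that removes ISG15 from its targets and dampens the type I receptor, averaged 4.66 in ErbB2 KI against 5.31 in WT. Isg15 itself, the ubiquitin-like modifier, averaged 4.54 against 4.93. Igtp averaged 5.68 against 7.73, a difference of -2.04 with a 95% interval from -4.10 to 0.01. With the 4 arrays left out no member was called, 31 of 34 differences were negative and their median was -0.21. Igtp was then at -1.32 and Irgm2 at -0.87, against -1.57 with all arrays.

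In the KI:KO hearts, which carry both alleles, 14 of 34 members had a higher mean than in WT and 20 a lower one. None was called against WT (5.6% of all genes were, limma), 4 had an unadjusted p under 0.05 (17.4% of all genes did) and the median difference was -0.10. Oas2 came closest, with 0.51 ± 0.14 (adjusted p = 0.0553, limma), followed by Ifit2 with 0.29 ± 0.10 (adjusted p = 0.164, limma). Oas2 and Oas3 were the only members whose 3 KI:KO hearts lay above the 3 WT hearts, against 10.7% of all genes. Irf1, the interferon-γ-induced factor, had a difference of -0.51 ± 0.23 (adjusted p = 0.272, limma). It was at 6.65, 7.36 and 6.52 (WT), 6.49, 6.66 and 6.43 (ErbB2 KI), 7.51, 6.69 and 7.16 (ERRα KO), then 6.15, 6.37 and 6.49 (KI:KO), so that all KI:KO hearts lay below all WT hearts. Without the 4 arrays, Gbp3 alone was called lower in KI:KO than in WT hearts, against 1.15% of all genes, by a log2 difference of -0.76 (adjusted p = 0.0444, limma). With all arrays the difference was -0.75 ± 0.48. The arrays left out held both the highest WT value of Gbp3, 6.57, and the highest KI:KO value, 5.85, which lay above the other WT hearts at 5.24 and 5.13.

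The KI:KO hearts were then set against each single mutant. Against ErbB2 KI, Oasl2 and Xaf1 were called higher, by 0.96 ± 0.18 or 1.94-fold (adjusted p = 0.0132, limma) and by 0.97 ± 0.20 or 1.96-fold (adjusted p = 0.0184, limma), and 2.22% of all genes were called higher. The 3 KI:KO hearts lay above the 3 ErbB2 KI hearts in 14 of 34 members, against 9.88% of all genes, and the median difference was 0.33. The test named in the study's methods, with Benjamini-Hochberg adjustment, called no member here or in the other pairwise comparisons. Without ErbB2 KI replicate 1 neither gene was called, without ErbB2 KI replicate 2 only Oasl2 was, and without KI:KO replicate 1 or without the 4 arrays only Xaf1 was. In the fit without those arrays 1.31% of all genes were called higher, and the difference of Oasl2 was 0.92.

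Against ERRα KO, 25 of 34 members had a lower mean in KI:KO hearts. None was called (0.329% of all genes were, limma), the median difference was -0.26, and 14 of 34 were lower at an unadjusted p under 0.05 with a change of 1.2-fold or more, against 3.99% of all genes. Ifih1 had the smallest p, with -0.72 ± 0.15 (adjusted p = 0.0786, limma), and Rtp4 followed with -0.56 ± 0.15 (adjusted p = 0.174, limma). In 6 members, Irf1, Stat2, Ifih1, Mx2, Rtp4 and Bst2, the 3 KI:KO hearts lay below the 3 ERRα KO hearts, against 7.63% of all genes. Without the 4 arrays, 8 members were called lower, against 0.271% of all genes, namely Igtp, Irgm2, Iigp1, Gbp3, Gbp4, Gbp7, Irf1 and Parp14. Igtp was then lower by a log2 difference of -3.97, with both remaining ERRα KO hearts being the high ones and the highest KI:KO heart left out. The median over the members was then -0.49.

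Averaged over the ERRα genotypes, 32 of the 34 members had a lower mean with the ErbB2 KI allele, the median difference was -0.25, and no member was called (0.122% of all genes were, limma). Unadjusted, 17 had a p under 0.05, against 9.06% of all genes, and 15 were lower by at least 1.2-fold as well, against 1.76% of all genes. Rtp4 had the smallest p, at -0.61 ± 0.11 (adjusted p = 0.0707, limma), and Ifih1 was at -0.49 ± 0.11 (adjusted p = 0.135, limma). The largest differences were those of Igtp (-2.25), Iigp1 (-1.86) and Irgm2 (-1.74), with 95% intervals from -3.71 to -0.80, from -3.05 to -0.68 and from -2.88 to -0.60. Without the 4 arrays, Igtp, Irgm2, Iigp1, Gbp3, Gbp4 and Gbp7 were called lower, against 0.158% of all genes, again with the lowest ERRα KO and highest KI:KO hearts for these genes left out.

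**Figure D5:**
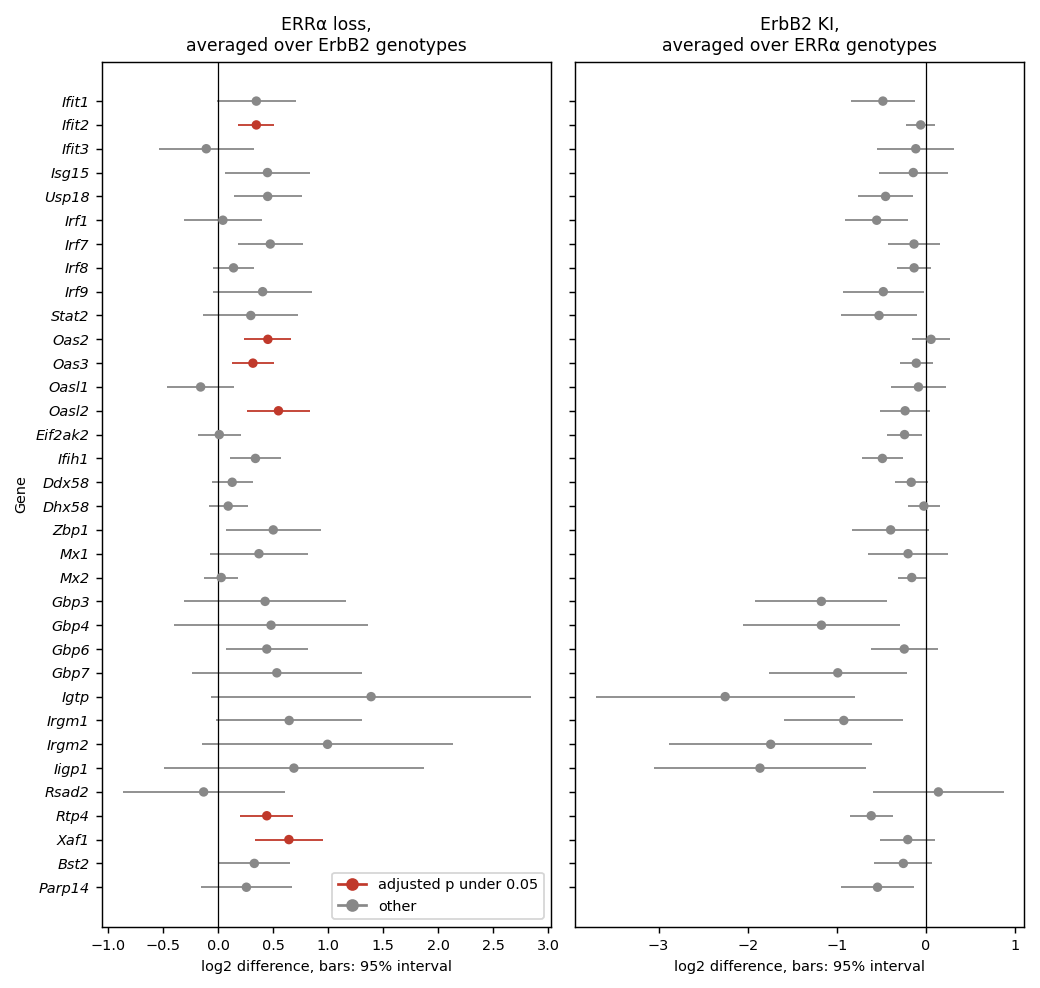
Log2 difference (horizontal axis, point) with its 95% interval (bar) for 34 members (vertical axis). The left panel shows ERRα loss averaged over ErbB2 genotypes and the right panel the ErbB2 KI allele averaged over ERRα genotypes. Red marks an adjusted p under 0.05 (limma), which 6 members reached on the left and none on the right, and the GBP and IRG genes have the widest intervals in both.

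The interaction, which asks whether the effect of one allele depends on the other, was called for no member (0.00902% of all genes were, limma), and 2 members had an unadjusted p under 0.05, against 7.06% of all genes. These were Oasl2, at 0.82 ± 0.26 (adjusted p = 0.515, limma), and Xaf1, at 0.66 ± 0.28 (adjusted p = 0.663, limma). No member was called without the 4 arrays either, but the terms differed in size. Oasl2 was then at 0.54 and Xaf1 at 0.19, while the GTPases had the largest terms, -2.79 for Iigp1 (-0.88 with all arrays), -2.65 for Igtp (-0.42) and -1.64 for Gbp3 (-0.22), which came closest to the threshold (adjusted p = 0.0538, limma). The median over the members was -0.32 without these arrays and -0.03 with them. Again the arrays left out held the highest WT, lowest ERRα KO and highest KI:KO hearts for the GTPases by their median.

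The remaining members are given by their ranges. The transcription factors Irf9 and Stat2 shared their 3 highest hearts with the GTPases. Irf9 spanned 5.92 to 7.44 and Stat2 6.44 to 7.90. Irf8, a factor of myeloid cells, spanned only 5.08 to 5.68. The RNA sensors Ddx58 (6.34 to 7.001) and Dhx58 (4.56 to 4.97), the kinase Eif2ak2, known as PKR (5.87 to 6.55), and Oasl1 (4.20 to 5.27) were called in no comparison. Zbp1, a sensor of nucleic acids that triggers necroptosis, was lowest in ErbB2 KI replicate 3, at 4.58, and highest in ERRα KO replicate 1, at 6.37. Parp14, an ADP-ribosyltransferase, averaged 7.62 (WT), 7.23 (ErbB2 KI), 8.03 (ERRα KO), then 7.33 (KI:KO), and Bst2, the tetherin that holds budding virions, averaged 5.78, 5.53, 6.11 and 5.85. Rsad2, or viperin, stood at 7.52 in KI:KO replicate 3 and at 5.28 to 6.40 in the other 11 hearts. KI:KO replicate 3, on 1 of the 4 arrays that stood apart, was the highest heart for 5 of the 34 members, against 9.14% of all genes. The antiviral Mx GTPases gave weak signals, Mx1 from 2.07 to 3.49 and Mx2 from 3.85 to 4.42, and together with Gbp6 they were the 3 members below the 40th percentile of gene level.

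Upstream of these genes are the interferons themselves. Of 20 listed ligands, 18 were measured. Ifng, encoding interferon-γ, was at 3.98, 3.88 and 4.10 (WT), 3.79, 3.79 and 4.01 (ErbB2 KI), 3.86, 3.68 and 3.78 (ERRα KO), then 3.91, 3.94 and 3.68 (KI:KO), all below the 40th percentile level of 4.67, and the order of hearts at so low a signal is not read here. Ifnb1 spanned 2.99 to 3.67. Ifng and Ifnb1 were chosen after their values were seen. Averaged over ErbB2 genotypes, loss of ERRα lowered 1 ligand, Ifna11 (-0.44 ± 0.12, adjusted p = 0.0435, limma), at a level percentile of 1.51 among all genes. Of 23 receptor and JAK-STAT genes, the same contrast raised 1, the kinase Jak2 (0.25 ± 0.06, adjusted p = 0.0385, limma), and lowered 1, Il10rb, the shared chain of the interferon-λ and interleukin-10 receptors (-0.37 ± 0.06, adjusted p = 0.00225, limma). These counts were near the share over all genes, of which the contrast called 777 of 22180 higher and 726 lower. Il10rb spanned 9.96 to 10.14 in hearts with ERRα and 9.58 to 9.76 in hearts without it.

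Nucleic acid sensing starts interferon production. Of 19 such genes that are not members, 6 were called higher in the averaged contrast, against 3.5% of all genes. None was called lower, and the median was 0.15. The 4 with the smallest p were Ifi204, a DNA sensor of the AIM2-like family (0.92 ± 0.18, adjusted p = 0.00869, limma), the RNA sensor Tlr7 (0.43 ± 0.09, adjusted p = 0.0159, limma), Tlr3 (0.35 ± 0.08, adjusted p = 0.019, limma) and the adaptor Myd88 (0.31 ± 0.07, adjusted p = 0.0252, limma). In KI:KO relative to WT hearts, 2 of the 19 were called higher, against 652 of all 22180 genes. These were Ifi204 (1.18 ± 0.26, adjusted p = 0.0186, limma) and Sting1 (0.71 ± 0.15, adjusted p = 0.018, limma). Several of the sensing genes are also genes of macrophages, whose markers moved as given above, and that part was not tested.

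Of 57 further interferon-inducible genes, 7 were called higher without ERRα in the averaged contrast, against 3.5% of all genes. None was called lower, and the median was 0.23, against -0.01 over all genes. The 4 with the smallest p were Ifitm3 (0.53 ± 0.08, adjusted p = 0.00215, limma) and Ifitm2 (0.52 ± 0.10, adjusted p = 0.00733, limma), which block fusion of viral envelopes, Gbp11 (0.72 ± 0.15, adjusted p = 0.0109, limma) and the immunoproteasome subunit Psmb10 (0.57 ± 0.13, adjusted p = 0.0196, limma). Ifitm3 lay between 10.16 and 10.52 in hearts with ERRα and between 10.59 and 11.07 in hearts without it. In 20 of the 57, against 0.640% of all genes, the 3 highest hearts were again WT replicate 2 and ERRα KO replicates 1 and 3. They included Gbp8 (6.87, 7.91 and 7.73 in these hearts and 3.81 to 5.55 elsewhere), the checkpoint ligand Cd274 (8.39, 9.03 and 8.24 against 6.05 to 6.97), the peptide transporter Tap1 (8.25, 9.21 and 8.56 against 6.55 to 7.23) and the chemokine Cxcl9 (6.40, 6.28 and 5.65 against 4.05 to 5.23). These 4 were chosen after their values were seen.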

How the data were processed

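Total RNA of 12 frozen, powdered hearts was hybridised by the authors to Affymetrix Mouse Gene 2.0 ST arrays, 1 heart an array, and processed with Expression Console (version 1.4.1) and RMA. The deposited values are log2 expression values per probe set, background-corrected, normalized and summarised by the authors. No scanner files were used here, so only between-array normalization could be varied. The number of arrays limits the precision, and 3 hearts against 3 cannot give an exact permutation p below 0.1.

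Of 41345 probe sets, 23521 were annotated to 1 gene, 1820 to several and 16004 to none. Probe sets of 1 gene were kept, and the one with the highest mean represented the gene (22180 genes). Probes of closely related genes, such as those of the IRG family, may share signal, which was not tested. The GEO labels call the 3 hearts of a group biological replicates.

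One linear model with 4 group means was fitted to all genes in limma 3.58.1 (R 4.3.3) with empirical Bayes moderation. Each gene has a spread shared by the 4 groups, although the SDs of the GBPs and IRGs differed between genotypes. In each of 8 comparisons p-values (two-sided) were adjusted by Benjamini-Hochberg over 22180 genes and called under 0.05. Comparisons with WT share its 3 hearts. The fit was tested on simulated data. One-way ANOVA at p under 0.05 with 1.2-fold, from the study's methods, was an alternative, as were filtering, normalization, weighting, blocking and leaving out arrays.

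The members and the gene lists (roles, pathway genes and markers) were chosen with earlier results of these data known. Per-heart values, fold and adjusted p are given for members called in any comparison and for the 2 with the smallest p where none was called, and up to 4 called genes per pathway list and comparison. Erythroid markers were not analysed here. Figures were drawn with matplotlib 3.10.9.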

Additional observations from a re-analysis of the deposited data

How the results depend on the processing

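Averaged over ErbB2 genotypes, loss of ERRα raised 6 members. The count was 3 with the replicate block, 13 at an unadjusted p under 0.05 with 1.2-fold, 14 without the 4 arrays that stood apart (an alternative chosen after seeing the data) and 3 to 9 on leaving out 1 heart. Xaf1 was called in all 21 alternatives that tested it. Ifit2 and Oas2 missed the threshold only without the 4 arrays, while Oas3 missed it in 14 of 21, Oasl2 in 8 and Rtp4 in 8. KI:KO minus ErbB2 KI had 2 calls, and 4 with genes above the 40th percentile of level only, 10 and 12 at the unadjusted threshold by limma and by the methods' ANOVA, 0 by that ANOVA after Benjamini-Hochberg, 1 with the groups compared alone, 1 without the 4 arrays and 0 to 2 on leaving out 1 heart. ERRα KO minus WT had 0 calls, and 1 (Ifih1) with the level filter, with trended robust moderation or with array weights, 5 and 4 at the unadjusted threshold by limma and ANOVA, 11 without the 4 arrays and 0 to 2 on leaving out 1 heart. KI:KO minus ERRα KO had 0 calls, 1 (Ifih1) under the same 3 settings, 14 and 3 at the unadjusted threshold and 8 without the 4 arrays. KI:KO minus WT had 0 calls, 1 (Oas2) with the filter or the trend, 4 and 1 at the unadjusted threshold, 1 without the 4 arrays and 0 to 1 on leaving out 1 heart, and its median difference over the members (-0.10) ran from -0.17 to 0.08. ErbB2 KI minus WT had 0 calls and 6 and 3 at the unadjusted threshold. ErbB2 KI averaged over ERRα genotypes had 0 calls, 1 with the filter or array weights, 2 with the trend, 15 at the unadjusted threshold, 6 without the 4 arrays and 0 to 1 on leaving out 1 heart. The interaction had 0 calls and 2 at the unadjusted threshold. No called difference changed sign. At the unadjusted threshold by limma, the counts among all 22180 genes were as follows. Higher were 1242 (ERRα loss averaged), 1506 (KI:KO minus ErbB2 KI), 1139 (ERRα KO minus WT) and 753 (interaction). Lower were 886 (KI:KO minus ERRα KO), 395 (ErbB2 KI minus WT) and 391 (ErbB2 KI averaged). For KI:KO minus WT 3 members were higher and 1 lower, against 1645 and 1587 genes. Shares without the 4 arrays are given above with each comparison. The counts under the other alternatives have no share over all genes beside them and show only how the member count varied. Where counts differed, the cause was not tested. Replicate numbers did not pair the hearts: deviations of same-numbered hearts correlated between -0.19 and 0.20, with 3 of 18 above 0.1. The 4 arrays that stood apart, 1 in each group, did deviate together, with correlations between them of 0.18 to 0.25. What they share was not tested. The replicate block changed no other count by over 1.5 times.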
